A study of Mus musculus with 12 samples.

Results

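The genes described here are 38 components of B cell receptor (BCR) signaling. They were given by symbol as a fixed list that names no measured value. The list was chosen with earlier results of these data known, so the shares of members called may depend on that choice. All 38 had a row in both deposited count tables, among 12837 genes that the tables share. The libraries came from spleen follicular B cells, sorted as CD21/35- CD23+ cells from adult male mice that were either *Gpr174*+/Y (WT) or *Gpr174*-/Y (KO). In the KO allele the single coding exon of *Gpr174*, an X-linked gene for a G-protein-coupled receptor of lysophosphatidylserine, is replaced by the gene for the fluorescent protein tdTomato. The allele is carried in the germline, so every cell of a KO mouse lacks the receptor, in the B cell lineage and outside it. Sorted cells were either frozen at once (0 h) or first kept for 4 h in complete RPMI with serum and no stimulus. Each of the 4 groups (WT and KO at 0 h, WT and KO at 4 h) held 3 libraries. The labels do not tie libraries to individual mice, so the p-values measure the spread between these libraries. The study counts 3 mice per genotype over both times together. On that count the 0 h and 4 h libraries of a genotype share mice, and which libraries do is not given in the sources used here. The main fits hold no term for the mouse.

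The BCR is a membrane immunoglobulin joined to the signaling chains CD79A and CD79B. When antigen engages it, Src-family kinases phosphorylate the tails of these chains, SYK binds there and is activated, and SYK with BTK and the adaptor BLNK activates phospholipase C gamma 2. The lipase makes inositol trisphosphate, which opens calcium channels of the endoplasmic reticulum and leads to NFAT entry into the nucleus. It also makes diacylglycerol, which activates protein kinase C beta and RasGRP proteins and, through the BCL10-MALT1 complex, NF-kB. Phosphoinositide 3-kinase acts beside this branch, and lipid phosphatases such as SHIP-1 limit it. Follicular B cells need low-level signals of this kind to survive.

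Library totals ran from 6098941 to 11618787 counts, and no member fell under 109 counts in any library. Levels are CPM, that is counts scaled to the same total of reads in each library after TMM correction. Differences are log2 fold changes from edgeR's quasi-likelihood test, with standard errors derived from its F statistic. A gene was called when its Benjamini-Hochberg adjusted p over all genes tested was under 0.05. *Gpr174* reads remained in KO cells, at 73.4 to 76.4 CPM against 149.5 to 157.2 CPM in WT at 0 h. After 4 h they stood at 104.7 to 118.3 CPM in KO and 152.6 to 168.4 CPM in WT. *Fcer2a*, which encodes the CD23 used in the gate, had means of 1533 ± 46.7, 1333 ± 100.4, 527 ± 9.81 and 984 ± 48.0 CPM (SD, n = 3) in WT 0 h and KO 0 h, then WT 4 h and KO 4 h. The B cell factor *Pax5* had means of 368 ± 31.6, 340.0 ± 8.56, 217 ± 5.54 and 293 ± 3.00 CPM in the same order. *Cr2*, which encodes the CD21/35 used in the gate, had means of 1070.4 ± 47.1, 959 ± 88.5, 159 ± 26.4 and 299.6 ± 22.3 CPM. Markers of T cells (9 of 9 listed genes in the tables) summed to 19.8 to 37.4 CPM over the 12 libraries, with *Cd3e* at group means of 0.899 to 1.66 CPM. Macrophage and monocyte markers (7 of 12) summed to 70.3 to 80.3 CPM at 0 h and to no more than 48.3 CPM at 4 h. Markers of dividing cells (5 of 5) summed to 127 to 208 CPM in WT 0 h and 319 to 470.4 CPM in KO 0 h. The share of all counts that fell to the ribosomal RNA gene *Rn45s* was 9.23% to 11.3% at 0 h. After culture it ranged from 7.79% to 11.2% in WT libraries and between 6.65% and 7.59% for KO, with no overlap between genotypes at 4 h, and its part in the results was not tested. In bulk RNA a lower share of cells of a type and less RNA per cell cannot be told apart.

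Per kilobase of exon, the signaling chains were the most abundant members (CPM divided by the summed exon length in kilobases). *Cd79b* stood at 1063 ± 26.5 and *Cd79a* at 589 ± 54.3 CPM per kilobase in WT 0 h (SD, n = 3). Next came *Ptprc*, which encodes the phosphatase CD45 that keeps Src-family kinases active, at 475 ± 11.2, and *Bank1*, a scaffold that binds LYN and calcium channels, at 459 ± 38.2. The means of *Ptprc* and *Bank1* differ by less than the SD of *Bank1*. *Prkcb*, the gene for protein kinase C beta, followed at 357 ± 9.31, and *Ms4a1*, which encodes CD20, at 319 ± 11.2. At the low end stood *Stim1*, the calcium sensor of the endoplasmic reticulum, at 9.1 ± 0.554, the exchange factor *Vav2* at 8.21 ± 1.29 and *Vav3* at 5.89 ± 0.157. Of the 3 VAV genes, *Vav1* was the most abundant at 70.8 ± 6.81. Of the Src-family kinases, *Lyn* led at 163 ± 6.4, then *Blk* at 120.2 ± 7.66, with *Fyn* far lower at 12.2 ± 0.383. *Cd79b* and *Cd79a* kept ranks 1 and 2 in all 4 groups and *Vav3* kept rank 38. The rank of *Inpp5d*, the gene for SHIP-1, was 26 in both 0 h groups, 13 in WT 4 h and 23 in KO 4 h. Exons of *Lyn*, *Nfatc3*, *Itpr3* and *Itpr1* share 248, 219, 234 and 289 bases with other annotated genes, nearly all on the opposite strand, and those reads could not be separated.

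**Figure D1:**
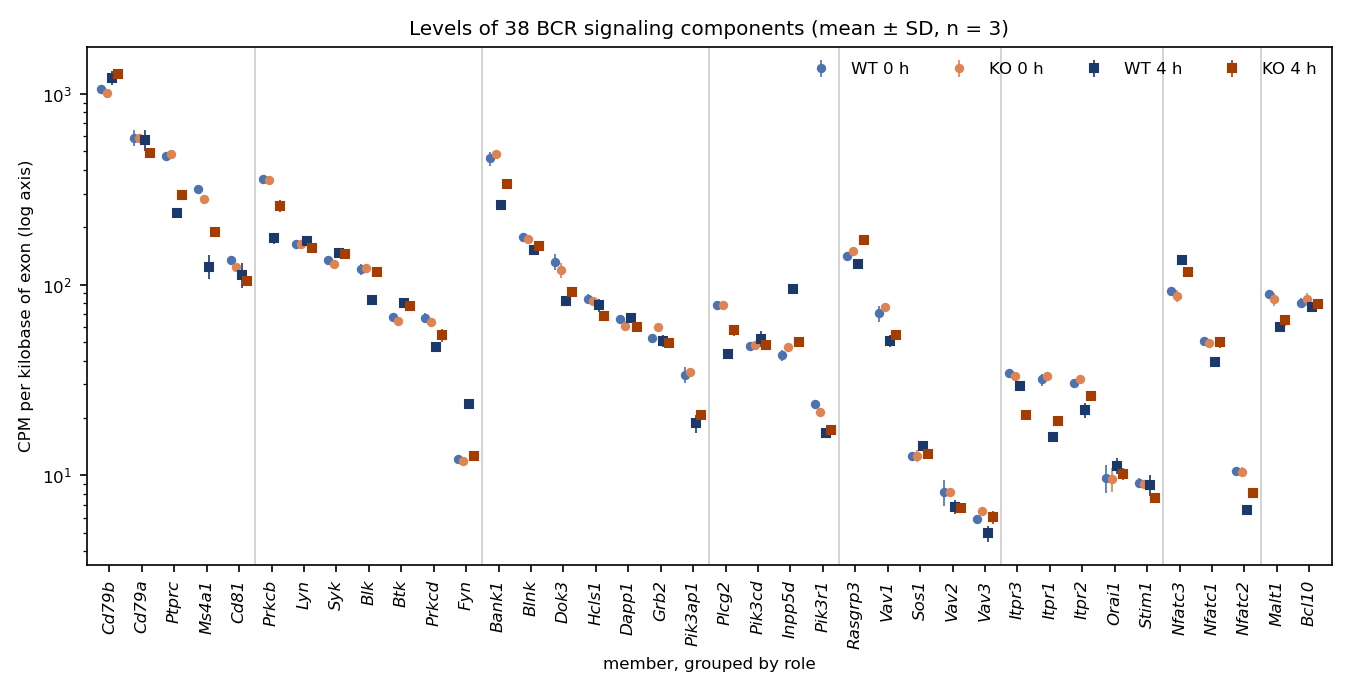
Mean level of each of the 38 members in CPM per kilobase of exon (log axis), grouped by role, with bars for the SD over 3 libraries, in WT 0 h and KO 0 h, then WT 4 h and KO 4 h. *Cd79b* is highest in every group and *Vav3* lowest, *Ms4a1*, *Prkcb* and *Ptprc* are lower at 4 h than at 0 h in both genotypes, and *Inpp5d* and *Fyn* are higher in WT 4 h than in the other groups.

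Before culture, no member was called between genotypes (0 of 38), where 0.987% of the 11345 genes tested were called, 0.502% higher in WT and 0.485% higher in KO. At an unadjusted p under 0.05 there were 3 members, *Ms4a1*, *Grb2* and *Inpp5d*. The median log2 fold change of WT over KO over the 38 was 0.00, as it was over all genes, and the members ran from -0.20 (*Grb2*) to 0.17 (*Ms4a1*). *Ms4a1* stood at 1003, 941 and 997 CPM in WT and at 866, 870.1 and 851 CPM in KO. The libraries of the genotypes did not overlap, and the difference of 0.17 ± 0.04 had an edgeR adjusted p of 0.0782. DESeq2 called this member alone, with an adjusted p of 0.0104. The signaling core was close between genotypes, with 0.00 ± 0.06 for *Cd79a*, 0.06 ± 0.04 for *Syk* and -0.01 ± 0.05 for *Plcg2*. The *Syk* libraries did not overlap between genotypes, and the difference was not called (edgeR adjusted p 0.635). An interval of 2 standard errors around the *Syk* value runs from -0.03 to 0.14. At the same time the summed markers of dividing cells were higher in KO. *Mki67* at -1.23 ± 0.14 (edgeR adjusted p 0.000341) and *Top2a* at -1.10 ± 0.17 (adjusted p 0.00499) were called lower in WT. So was *Ccna2* at -1.46 ± 0.21 (adjusted p 0.00172), while *Ccnb1* and *Birc5* were not called. The part of dividing cells in the member values was not tested.

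After 4 h of culture, 15 of 38 members (39.5%) were called between genotypes, 4 higher in WT and 11 higher in KO. Those higher in WT were *Inpp5d*, *Fyn*, *Itpr3* and *Nfatc3*, and those higher in KO were *Ms4a1*, *Prkcb*, *Blk*, *Plcg2*, *Rasgrp3*, *Bank1*, *Nfatc1*, *Ptprc*, *Nfatc2*, *Itpr1* and *Itpr2*. All differences were below 2-fold. Over all 11123 genes tested, 10.9% were called, with 5.22% higher in WT and with 5.67% higher in KO. The members are abundant genes, at a median of 252 CPM over the 12 libraries against 29.3 CPM for the genes tested, and abundant genes were called more often. Among the 704 tested genes at or above 252 CPM, 30.5% were called, against 12 of the 19 members (63.2%) in that range. Of those 704 genes 10.5% were called higher in WT and 20.0% higher in KO, so more calls higher in KO were general there. Among the 7012 genes at or above the least abundant member (19.1 CPM), the share called was 14.3%. Whether the members differ from genes of like abundance was not tested. The median log2 fold change of the members was -0.06. The 23 members not called ran from -0.27 (*Vav3*) to 0.24 (*Stim1*), with standard errors of 0.06 to 0.12. Markers of dividing cells summed at 4 h to 98.5 to 143 CPM in WT against 139.9 to 252 CPM in KO, ranges that overlap slightly. Of these 5 genes 2 were called lower in WT, *Mki67* at -0.83 ± 0.17 (edgeR adjusted p 0.00424) and *Ccna2* at -0.80 ± 0.19 (adjusted p 0.0141), and their part in the member calls was not tested.

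**Figure D2:**
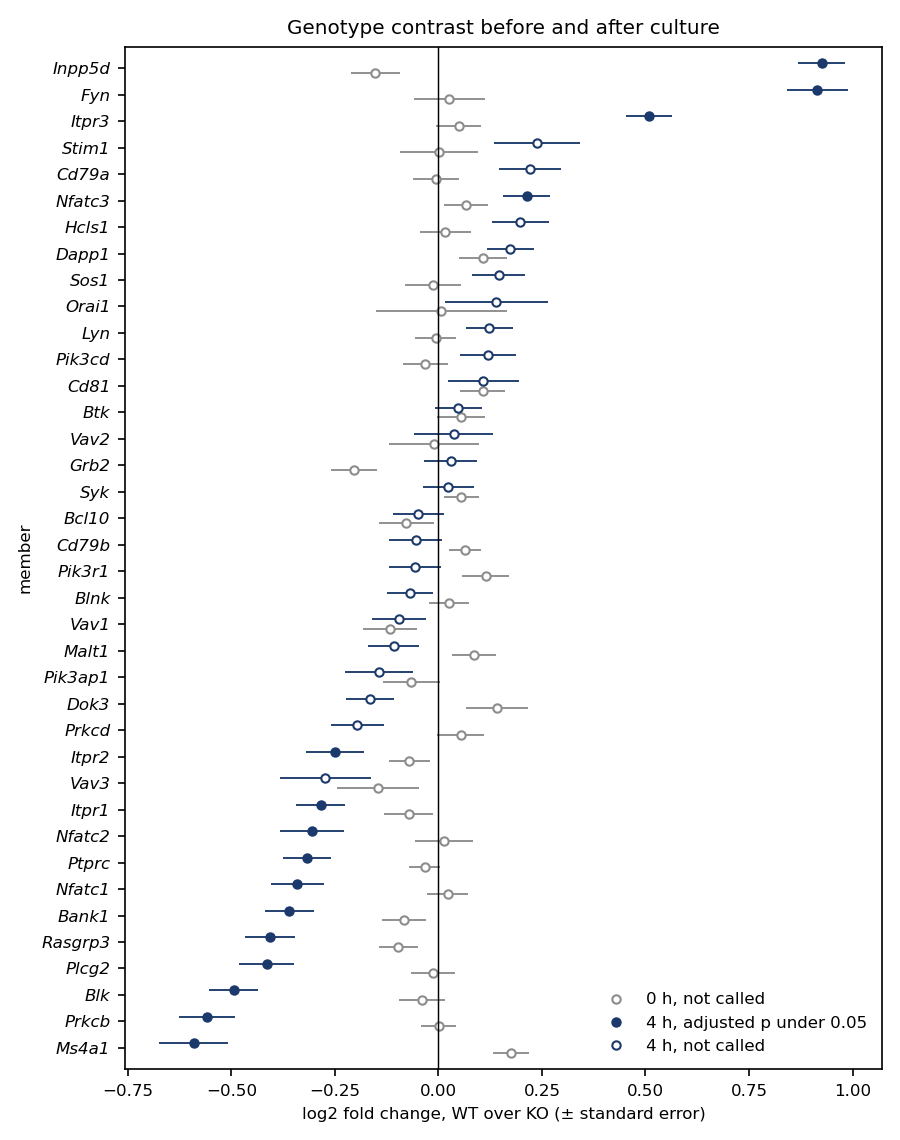
Log2 fold change of WT over KO for each of the 38 members at 0 h (grey) and at 4 h (blue), with bars for the standard error and filled points for an adjusted p under 0.05. No member is called at 0 h, and at 4 h the values spread from -0.59 (*Ms4a1*) to 0.93 (*Inpp5d*).

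Culture lowered more members than it raised in both genotypes. In WT cells 25 of 38 (65.8%) were called between 4 h and 0 h, of which 6 rose and 19 fell. Over 11572 genes tested 33.1% were called, with 15.1% rising and 18% falling. In KO cells 24 members (63.2%) were called, 5 rising and 19 falling, where 23.3% of genes were called, 10.3% rising and 13% falling. At or above 252 CPM the share of genes called was 61.2% in WT and 48.4% in KO, beside 14 (73.7%) and 13 (68.4%) of the 19 members in that range. Of all genes at that level 20.5% rose and 40.8% fell in WT, and 19.6% rose and 28.8% fell in KO. More falls than rises were thus general to abundant genes. The median log2 fold change of the members was -0.24 in WT and -0.25 in KO, where that over all genes was 0.00. Together the members took 1.60% to 1.65% of all counts at 0 h, and at 4 h 1.37% to 1.39% in WT but 1.47% to 1.54% in KO. Scaling by library totals alone put the median of all genes at 0.11 in WT and 0.09 in KO, and the members then split into 9 that rose and 16 that fell in WT and 6 that rose and 16 that fell in KO.

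Most of the members that changed did so in both genotypes. Of the 38, 19 were called in both culture contrasts, each in the same direction, with 16 lowered and 3 raised. Those raised in both were *Cd79b*, *Btk* and *Nfatc3*. Another 6 were called in WT but not KO (*Blk*, *Fyn*, *Blnk*, *Sos1*, *Inpp5d* and *Nfatc1*), 5 in KO but not WT (*Cd79a*, *Syk*, *Grb2*, *Hcls1* and *Rasgrp3*), and 8 in neither (*Lyn*, *Pik3cd*, *Dapp1*, *Vav2*, *Vav3*, *Bcl10*, *Stim1* and *Orai1*). A call in one genotype alone does not show that the genotypes differ, which the interaction tests. The changes in WT above 2-fold were those of *Inpp5d* (up) and *Ms4a1*, *Prkcb* and *Itpr1* (down), and no member changed more than 2-fold in KO. The counts of this paragraph were not made over all genes. They therefore do not tell whether the members are unlike other genes in these respects.

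The culture change itself differed between genotypes in 11 members (28.9%), where 6.39% of all genes were called, 2.45% with a more positive change in WT and 3.94% with a more negative one. At or above 252 CPM the share of genes called was 25.7%, beside 10 of the 19 members (52.6%). Of all genes at that level 7.1% had a more positive change in WT and 18.6% a more negative one. *Inpp5d*, *Fyn* and *Itpr3* had the more positive change in WT. *Ms4a1*, *Prkcb*, *Blk*, *Plcg2*, *Nfatc1*, *Rasgrp3*, *Ptprc* and *Bank1* had the more negative change in WT. All 11 were also called between genotypes at 4 h, which uses the same 4 h libraries. The median interaction of the members was -0.06, and the 27 members not called ran from -0.33 (*Nfatc2*) to 0.23 (*Stim1*).

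**Figure D3:**
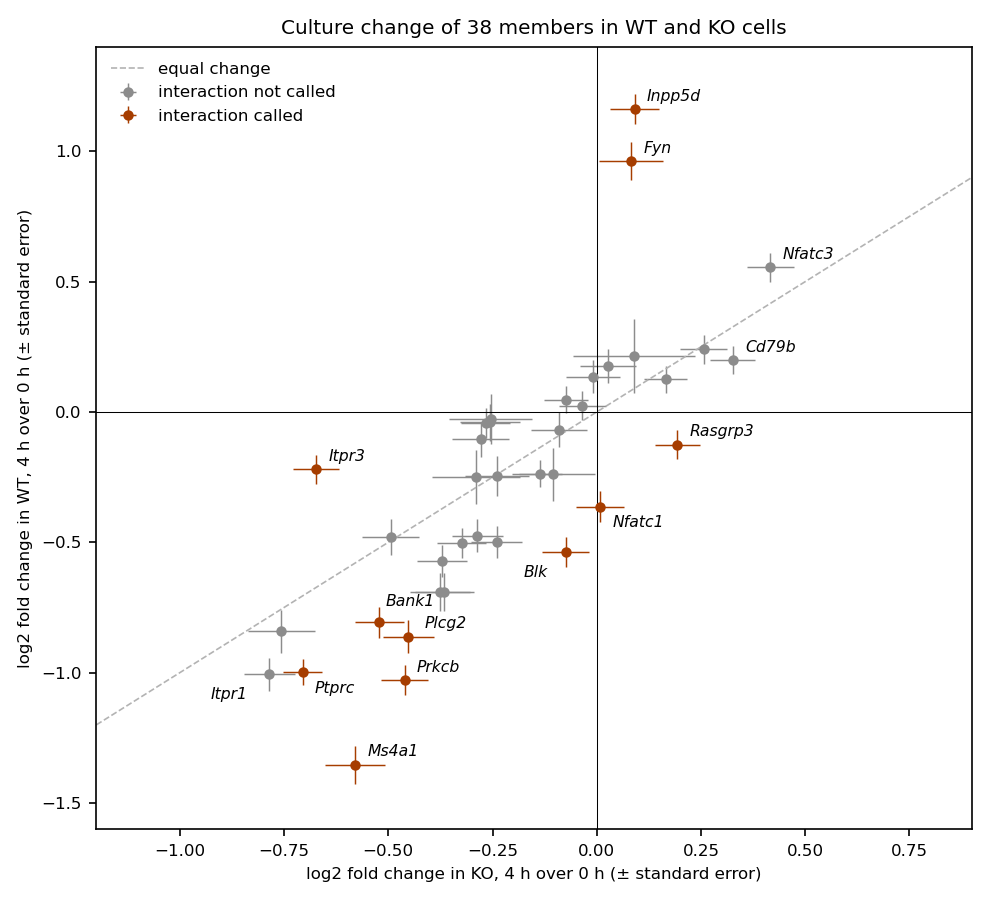
Culture change (4 h over 0 h, log2) in WT cells against that in KO cells for the 38 members, with bars for the standard errors and a dashed line of equal change. Members called in the interaction are in brown, with *Inpp5d*, *Fyn* and *Itpr3* above the line and *Ms4a1*, *Prkcb*, *Blk*, *Plcg2*, *Nfatc1*, *Rasgrp3*, *Ptprc* and *Bank1* below it.

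Among the lipid enzymes, *Inpp5d* rose in WT and *Plcg2* fell in both genotypes. *Inpp5d* (chromosome 1, 87620312 to 87720507, plus strand, GRCm38 as for all positions here) encodes SHIP-1, the phosphatase that removes a phosphate from the lipid product of phosphoinositide 3-kinase and dampens BCR signals. It stood at 219, 223 and 195 CPM (WT 0 h), 232, 232 and 239 (KO 0 h), 476, 462 and 482 (WT 4 h) and 239, 257 and 254 (KO 4 h). Every WT 4 h library lay far above every other library. At 0 h the WT libraries lay below those of KO, at -0.15 ± 0.06 (edgeR adjusted p 0.275, not called), and this difference enters the interaction. The WT change was 1.16 ± 0.06 (2.24-fold, edgeR adjusted p 8.45e-13) and the KO change 0.09 ± 0.06 (adjusted p 0.284). The difference between these changes was 1.07 ± 0.08 (adjusted p 1.04e-08), the largest of the members, and WT exceeded KO at 4 h by 0.93 ± 0.06 (adjusted p 2.62e-08). SHIP-1 is also made by myeloid cells. Macrophage and monocyte markers summed to at least 70.3 CPM in WT 0 h and at most 44.1 CPM in WT 4 h, and 4 of 7 were called lower, while *Cd68*, *Spic* and *Emr1* were not called. The neutrophil markers *S100a8* and *S100a9* summed to 18.6 to 50.3 CPM in WT 0 h and 20.4 to 48.9 CPM in WT 4 h. The part of such cells in the *Inpp5d* result was not tested.

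*Plcg2* (chromosome 8, 117498291 to 117635142, plus strand), the gene for phospholipase C gamma 2, moved the other way. Its libraries stood at 332, 353 and 327 CPM (WT 0 h), 331, 326 and 356 (KO 0 h), 197, 183 and 176 (WT 4 h) and 258, 255 and 228 (KO 4 h). Both 4 h groups lay below both 0 h groups, and WT 4 h lay below KO 4 h with no overlap. The change was -0.86 ± 0.06 in WT and -0.45 ± 0.06 in KO, with an interaction of -0.41 ± 0.09 (edgeR adjusted p 0.00437). *Pik3r1*, the regulatory subunit p85 alpha of phosphoinositide 3-kinase, fell in both genotypes, at -0.50 ± 0.06 in WT and -0.32 ± 0.06 in KO (interaction adjusted p 0.269). *Pik3cd*, the catalytic subunit p110 delta, was called in no contrast and had group means of 253 ± 13.2, 257 ± 7.84, 277 ± 26.1 and 255 ± 8.47 CPM (SD, n = 3) in WT 0 h and KO 0 h, then WT 4 h and KO 4 h.

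**Figure D4:**
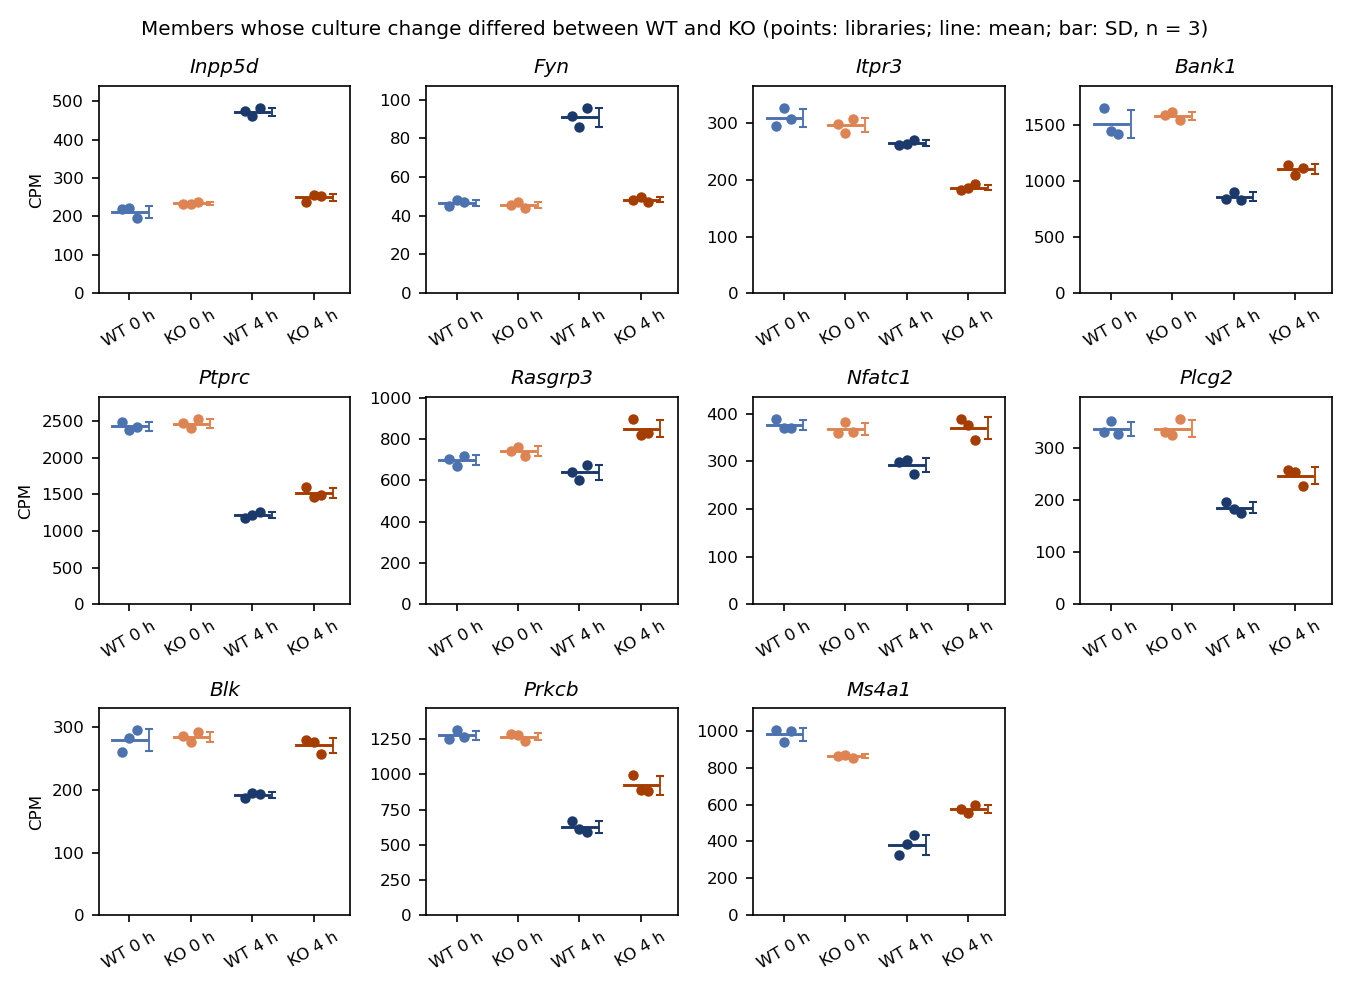
CPM in each library (points), group mean (line) and SD over 3 libraries (bar) for the 11 members whose culture change differed between genotypes, each on its own linear axis from 0. *Inpp5d* and *Fyn* are higher in WT 4 h than in the other groups, *Itpr3* is lowest in KO 4 h, and *Ms4a1*, *Prkcb*, *Blk*, *Plcg2*, *Nfatc1*, *Rasgrp3*, *Ptprc* and *Bank1* are lower in WT 4 h than in KO 4 h.

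Of the 7 kinases, *Fyn* rose in WT, *Prkcb* and *Prkcd* fell in both genotypes and *Blk* fell in WT. *Fyn* (chromosome 10, 39368855 to 39565381, plus strand) encodes a Src-family kinase that is better known from T cells, and was the least abundant kinase gene here. Its level was 45.1, 48.0 and 47.2 CPM (WT 0 h), 45.6, 47.3 and 43.9 (KO 0 h), 91.4, 85.7 and 95.6 (WT 4 h) and 47.9, 50.0 and 47.1 (KO 4 h). The 9 libraries outside WT 4 h lay within a narrow range, and those of WT 4 h were all well above it. The WT change was 0.96 ± 0.07 (1.95-fold), the KO change 0.08 ± 0.08, and the interaction 0.88 ± 0.11 (edgeR adjusted p 7.55e-06). The 9 T cell markers summed to 19.8 to 28.2 CPM in WT 4 h, beside 24.1 to 37.1 CPM in KO 4 h. Most of that sum was *Lck*, at a mean of 14.4 CPM in WT 4 h and 22.4 CPM in KO 4 h. The other 8 had a higher mean in WT 4 h than in KO 4 h, each at under 2 CPM, and *Cd3e* stood at 1.66 against 0.899 CPM. The part of T cells in the *Fyn* result was not tested.

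*Blk* (chromosome 14, 63372836 to 63417037, minus strand), a Src-family kinase gene used mainly by B cells, showed the reverse. It was counted at 260.4, 283 and 296 CPM (WT 0 h), 286, 277 and 293 (KO 0 h), 187, 195 and 194 (WT 4 h) and 279, 277 and 258 (KO 4 h). The KO 4 h libraries overlapped those of both 0 h groups, while WT 4 h lay below them all. The WT change was -0.54 ± 0.06 (edgeR adjusted p 1.97e-07), the KO change -0.07 ± 0.06 (adjusted p 0.381) and the interaction -0.46 ± 0.08 (adjusted p 0.000646). *Lyn*, the most abundant Src-family member, was called in no contrast, with a genotype difference at 4 h of 0.12 ± 0.06 (adjusted p 0.212).

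*Prkcb* (chromosome 7, 122288751 to 122634402, plus strand) fell in both genotypes and further in WT. Its level was 1250.0, 1313 and 1264 CPM (WT 0 h), 1284, 1276 and 1237 (KO 0 h), 669.9, 613 and 591 (WT 4 h) and 996, 887 and 879.5 (KO 4 h). The genotypes overlapped at 0 h and were far apart at 4 h. The change was -1.03 ± 0.06 in WT and -0.46 ± 0.06 in KO, with an interaction of -0.57 ± 0.08 (edgeR adjusted p 5.95e-05). *Prkcd*, which encodes protein kinase C delta, fell in both, at -0.50 ± 0.06 in WT and -0.24 ± 0.06 in KO (adjusted p 0.00647 in KO), and the difference of -0.26 ± 0.09 was not called (adjusted p 0.0878). Its KO call was lost with library totals (adjusted p 0.0863) and without KO 4 h replicate 2 (adjusted p 0.056), and its interaction was called without WT 0 h replicate 1 (adjusted p 0.0431).

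*Syk* and *Btk*, which encode kinases at the start of the cascade, were not called between genotypes. *Syk* (chromosome 13, 52583173 to 52648792, plus strand) stood at 799, 825 and 814 CPM (WT 0 h), 779.5, 779 and 771 (KO 0 h), 917, 899 and 839 (WT 4 h) and 929.8, 833 and 853 (KO 4 h). The 4 h libraries overlapped between genotypes, and the WT over KO value was 0.02 ± 0.06 (edgeR adjusted p 0.871), with an interval of 2 standard errors from -0.10 to 0.15. The KO change was 0.17 ± 0.05 (adjusted p 0.0242), a call lost when any KO library but KO 4 h replicates 2 and 3 was left out (adjusted p up to 0.153). *Btk* (chromosome X, 134542336 to 134583570, minus strand), the kinase gene mutated in X-linked agammaglobulinemia, stood at 178, 190.0 and 178 CPM (WT 0 h), 171, 167 and 184 (KO 0 h), 215, 217 and 212 (WT 4 h) and 216, 200.2 and 208 (KO 4 h). It rose by 0.24 ± 0.06 in WT and 0.26 ± 0.06 in KO (adjusted p 0.00195 and 0.00188). The difference between these changes was -0.01 ± 0.08, and 2 standard errors around it run from -0.17 to 0.14.

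Sequences before RefSeq starts are shown for the 3 members with a more positive change in WT and, for contrast, for *Plcg2*. It had the most negative interaction among members with a window in the RefSeq promoter table (GRCm38.p6) free of exons annotated in GENCODE M21. Each is the stretch of 250 bases before the RefSeq start, cut short for *Fyn* where an annotated exon begins. All 4 lie on the plus strand, at chr1:87620062-87620311 (*Inpp5d*), chr10:39369549-39369763 (*Fyn*, 215 bases), chr17:27057054-27057303 (*Itpr3*) and chr8:117498025-117498274 (*Plcg2*). The *Fyn* window lies inside the gene as GENCODE annotates it, in an intron of a transcript that starts further upstream. Capitals mark matches on either strand to TGACG (the short form of the cAMP response element), GGAAG (a core bound by ETS factors) and ATTTGCAT (the octamer bound by OCT factors in B cells).
Inpp5d: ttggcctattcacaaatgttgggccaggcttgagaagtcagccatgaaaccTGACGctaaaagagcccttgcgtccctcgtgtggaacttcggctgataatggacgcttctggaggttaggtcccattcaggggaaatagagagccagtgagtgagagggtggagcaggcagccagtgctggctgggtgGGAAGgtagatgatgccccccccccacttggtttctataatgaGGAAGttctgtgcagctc
Fyn: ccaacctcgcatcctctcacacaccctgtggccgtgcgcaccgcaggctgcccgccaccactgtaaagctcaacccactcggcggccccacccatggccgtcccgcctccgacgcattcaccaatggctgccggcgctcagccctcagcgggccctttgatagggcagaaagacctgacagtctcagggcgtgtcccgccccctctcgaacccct
Itpr3: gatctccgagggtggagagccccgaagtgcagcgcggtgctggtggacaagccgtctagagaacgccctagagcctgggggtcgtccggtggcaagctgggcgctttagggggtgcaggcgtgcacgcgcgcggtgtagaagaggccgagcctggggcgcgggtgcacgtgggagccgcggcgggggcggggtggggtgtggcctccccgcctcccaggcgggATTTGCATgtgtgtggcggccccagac
Plcg2: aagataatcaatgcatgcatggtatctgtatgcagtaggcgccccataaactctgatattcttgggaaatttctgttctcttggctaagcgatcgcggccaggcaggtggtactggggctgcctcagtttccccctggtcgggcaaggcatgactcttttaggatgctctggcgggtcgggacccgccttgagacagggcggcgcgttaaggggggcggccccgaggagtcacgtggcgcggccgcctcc
*Inpp5d* held 1 match to TGACG, 199 bases before the start, and 2 ETS cores. *Itpr3* held 1 octamer, 27 bases before the start, and *Fyn* and *Plcg2* held none of the motifs. The full cAMP response element TGACGTCA, which contains TGACG, was in 0 of the 43 windows of 31 members and in 1.55% of all 32851 windows in the table. TGACG alone was in 5 member windows (11.6%, in *Inpp5d*, *Nfatc3*, *Orai1*, *Pik3r1* and *Stim1*) against 17.8% of all windows. The ETS core was in 27 (62.8%) against 64.1%. The octamer was in 4 (9.3%, in *Blnk*, *Itpr3*, *Orai1* and *Prkcb*) against 1.6%. These are matches of letters, not measured binding, and *Cd79b*, *Ms4a1*, *Lyn*, *Blk*, *Malt1*, *Nfatc1* and *Itpr1* had no entry.

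Of the 5 receptor and surface genes, *Ms4a1* and *Ptprc* fell strongly, *Cd81* fell slightly, and the signaling chains moved little. *Ms4a1* (chromosome 19, 11249675 to 11266241, minus strand) encodes CD20, a surface protein of mature B cells that associates with the BCR and supports calcium responses. At 4 h it stood at 326, 386 and 435 CPM in WT and 578, 556 and 599.9 CPM in KO. Both groups lay below all 0 h libraries, and WT lay below KO with no overlap, where at 0 h WT had lain above KO. The change was -1.35 ± 0.07 in WT and -0.58 ± 0.07 in KO, and the interaction of -0.77 ± 0.10 (edgeR adjusted p 2.26e-05) was the most negative of the members. *Ptprc* (chromosome 1, 138062861 to 138175708, minus strand), the most highly counted member, stood at 2494, 2382 and 2417 CPM (WT 0 h), 2477, 2403 and 2528 (KO 0 h), 1174, 1217 and 1255 (WT 4 h) and 1597, 1464 and 1488 (KO 4 h). The genotypes overlapped at 0 h and did not at 4 h. The change was -0.997 ± 0.05 in WT and -0.71 ± 0.05 in KO, with an interaction of -0.29 ± 0.07 (adjusted p 0.00902).

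*Cd79b* (chromosome 11, 106311341 to 106314762, minus strand) rose in both genotypes. It stood at 1559.7, 1484 and 1518 CPM (WT 0 h), 1449.5, 1440.1 and 1441 (KO 0 h), 1910.0, 1606 and 1710.4 (WT 4 h) and 1775, 1829 and 1833 (KO 4 h). The change was 0.20 ± 0.05 in WT (edgeR adjusted p 0.00655) and 0.33 ± 0.05 in KO (adjusted p 9.99e-05), and the genotypes overlapped at 4 h. *Cd79a* (chromosome 7, 24897381 to 24902197, plus strand), its partner in the heterodimer, stood at 946, 792 and 835 CPM (WT 0 h), 853, 839.7 and 870.0 (KO 0 h), 947, 739.7 and 813 (WT 4 h) and 721, 723 and 703 (KO 4 h). The WT libraries were the most spread, and the KO 4 h libraries lay below all the others. The KO change was -0.26 ± 0.07 (adjusted p 0.0121), a call lost when libraries were scaled by their totals (adjusted p 0.0596). The 4 h genotype value of 0.22 ± 0.07 was not called (adjusted p 0.0753), but was called by DESeq2 (adjusted p 0.0441) and without WT 4 h replicate 2, at 0.30 (adjusted p 0.00875). *Cd81*, a tetraspanin of the cell surface, changed by -0.25 ± 0.08 in WT and -0.24 ± 0.08 in KO. These calls were lost with library totals (adjusted p 0.126 and 0.128), in WT without WT 0 h replicate 3 or WT 4 h replicate 2, and in KO without any KO library except KO 0 h replicate 2. The heavy and light chain genes *Ighm*, *Ighd* and *Igkc* are not members and were placed in the list of other pathway genes below. *Ighm* was not among the genes that both count tables share.

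Among the 7 adaptors and scaffolds, none rose and *Bank1*, *Dok3* and *Pik3ap1* fell in both genotypes. *Bank1* (chromosome 3, 136053363 to 136326066, minus strand) stood at 1646, 1442 and 1419 CPM (WT 0 h), 1582, 1615 and 1541 (KO 0 h), 837, 903 and 832 (WT 4 h) and 1139, 1050.5 and 1117 (KO 4 h). The genotypes overlapped at 0 h and not at 4 h, where WT over KO was -0.36 ± 0.06 (edgeR adjusted p 0.000746). Its interaction of -0.29 ± 0.08 (adjusted p 0.0389) was the weakest of the 11 calls. That call was lost with library totals (adjusted p 0.07) and without any of WT 0 h replicate 1, KO 0 h replicates 1 and 3, WT 4 h replicates 1 and 3 or KO 4 h replicates 1 and 3 (adjusted p 0.0677 to 0.119). *Pik3ap1*, the gene for the BCAP adaptor that recruits phosphoinositide 3-kinase, stood at 167, 149 and 138 CPM (WT 0 h), 154, 154 and 163 (KO 0 h), 73.9, 87.1 and 90.6 (WT 4 h) and 86.9, 98.4 and 93.6 (KO 4 h). Each 4 h group lay below both 0 h groups and the genotypes overlapped at 4 h, with a fall of -0.84 ± 0.08 in WT and -0.76 ± 0.08 in KO.

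*Blnk* (chromosome 19, 40928927 to 40994535, minus strand), the adaptor that brings BTK and phospholipase C gamma 2 to SYK, changed by less. It stood at 377, 379 and 366 CPM (WT 0 h), 365, 348 and 381 (KO 0 h), 318, 322 and 310.3 (WT 4 h) and 343, 320.4 and 334 (KO 4 h). Both 4 h groups lay below all 0 h libraries and overlapped each other. The WT change was -0.24 ± 0.05 (edgeR adjusted p 0.00119, lost with library totals at 0.063) and the KO change -0.13 ± 0.05 (adjusted p 0.0649), with an interaction of -0.10 ± 0.07 (adjusted p 0.535). *Dok3*, an adaptor that limits BCR calcium signals, changed by -0.69 ± 0.07 in WT and -0.38 ± 0.07 in KO. The Ras adaptor *Grb2* and the actin regulator *Hcls1* were called in KO culture alone, at -0.27 ± 0.06 and -0.28 ± 0.07, and neither was called in the interaction (adjusted p 0.137 and 0.376). *Dapp1*, a lipid-binding adaptor, was called in no contrast, and its 4 h genotype value of 0.17 ± 0.06 had an adjusted p of 0.0658.

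The 3 inositol trisphosphate receptor genes all fell in culture in both genotypes, yet differed between genotypes in opposite directions. *Itpr3* (chromosome 17, 27057304 to 27122223, plus strand) stood at 295, 327 and 307 CPM (WT 0 h), 299.6, 284 and 308 (KO 0 h), 262, 263 and 270.3 (WT 4 h) and 182, 186 and 192 (KO 4 h). The KO 4 h libraries lay far below all the others. The change was -0.22 ± 0.05 in WT (edgeR adjusted p 0.00323, and 0.131 with library totals) and -0.67 ± 0.06 in KO, with an interaction of 0.45 ± 0.08 (adjusted p 0.000517). *Itpr1* (chromosome 6, 108213096 to 108551109, plus strand) stood at 302, 340.5 and 299.7 CPM (WT 0 h), 329, 310.4 and 343 (KO 0 h), 155, 163 and 149.9 (WT 4 h) and 193, 184 and 195 (KO 4 h). It fell more in both genotypes, at -1.01 ± 0.06 and -0.79 ± 0.06, and at 4 h the WT libraries lay below those of KO (WT over KO -0.28 ± 0.06, adjusted p 0.00547). *Itpr2* differed by -0.25 ± 0.07 at 4 h (adjusted p 0.0328), a call lost without any 4 h library other than WT 4 h replicate 2 (adjusted p 0.0599 to 0.158). The interactions of *Itpr1* and *Itpr2* were not called, at -0.22 ± 0.09 and -0.19 ± 0.09. *Stim1* and *Orai1*, the sensor and the pore of store-operated calcium entry, were low and called in no contrast, with standard errors of up to 0.20 in the interaction.

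The NFAT factors, which calcium and calcineurin send to the nucleus, split likewise. *Nfatc1* stood at 388, 369 and 370.3 CPM (WT 0 h), 359, 382 and 361 (KO 0 h), 299, 303 and 274 (WT 4 h) and 388, 377 and 345 (KO 4 h). WT 4 h lay below every other library, and KO 4 h overlapped both 0 h groups. The WT change was -0.36 ± 0.06, the KO change 0.01 ± 0.06 and the interaction -0.37 ± 0.08 (edgeR adjusted p 0.00621). *Nfatc3* stood at 553, 564 and 587 CPM (WT 0 h), 536, 500.4 and 580.2 (KO 0 h), 868, 835 and 799 (WT 4 h) and 740.0, 724 and 697 (KO 4 h). It rose in both genotypes, by 0.56 ± 0.06 and 0.42 ± 0.06, and was the member most raised in KO. *Nfatc2*, the least abundant of the 3, stood at 84.9, 88.8 and 92.4 CPM (WT 0 h), 82.2, 88.0 and 91.9 (KO 0 h), 56.6, 57.5 and 51.0 (WT 4 h) and 68.4, 66.5 and 68.9 (KO 4 h). It fell in both genotypes, at -0.69 ± 0.07 and -0.37 ± 0.07. The 4 h genotype calls of *Nfatc3* (0.21 ± 0.06, adjusted p 0.0248) and *Nfatc2* (-0.31 ± 0.08, adjusted p 0.018) were each lost in 4 of the 6 fits that left out a library, each KO 4 h library among them (adjusted p up to 0.126 and 0.0998).

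*Rasgrp3* was the only one of the 5 exchange factors called between genotypes at 4 h or in the interaction. It (chromosome 17, 75435896 to 75529054, plus strand) encodes the diacylglycerol-activated exchange factor that couples the BCR to Ras. It stood at 705, 671 and 718 CPM (WT 0 h), 742, 763 and 718 (KO 0 h), 638, 602 and 675 (WT 4 h) and 895, 821 and 828 (KO 4 h). The KO 4 h libraries lay above all the others, while those of WT 4 h overlapped WT 0 h at its low end. The KO change was 0.19 ± 0.05 (edgeR adjusted p 0.0125, lost without KO 0 h replicate 3 at 0.061 and without KO 4 h replicate 1 at 0.081). The WT change was -0.13 ± 0.05 (adjusted p 0.0835) and the interaction -0.32 ± 0.08 (adjusted p 0.0124). *Vav1*, the main VAV exchange factor for Rac in lymphocytes, fell in WT (-0.48 ± 0.07) and in KO (-0.49 ± 0.07). *Sos1*, the Ras exchange factor bound by GRB2, rose by 0.18 ± 0.07 in WT (adjusted p 0.0429), and this call was lost in 10 of 19 alternatives (adjusted p up to 0.146, without WT 4 h replicate 2). *Vav2* and *Vav3* were called in no contrast.

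In the BCL10-MALT1 complex, *Malt1*, the paracaspase, fell in both genotypes and *Bcl10* was called in no contrast. *Malt1* stood at 481 ± 8.54 and 450.2 ± 35.0 CPM at 0 h and at 323 ± 9.34 and 349 ± 22.3 CPM at 4 h in WT and KO (SD, n = 3). The change was -0.57 ± 0.06 in WT and -0.37 ± 0.06 in KO, with no call between genotypes at 4 h (edgeR adjusted p 0.318). *Bcl10* stood at 156 ± 9.21, 164 ± 13.2, 149 ± 3.82 and 154 ± 9.11 CPM in WT 0 h and KO 0 h, then WT 4 h and KO 4 h.

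Other genes of the pathway, from a list of 91 that holds co-receptors, phosphatases and downstream kinases, were counted in the same way. At 0 h 1 of 82 tested was called, where 0.987% of all genes were. At 4 h 23 of 83 (27.7%) were called, 8 higher in WT and 15 higher in KO, beside 10.9% of all genes tested and 14.3% of those at or above 19.1 CPM. That floor is the level of the least abundant member, not of this list, in which *Cd5* had group means of 0.883 to 1.97 CPM. In WT culture 13 rose and 34 fell (56.6% called, 33.1% of all genes), and in KO culture 7 rose and 27 fell (41%, and 23.3% of all genes). Among all genes at or above 19.1 CPM, 40.1% were called in WT culture and 28.8% in KO culture. The interaction was called for 19 of the list (22.9%), of which 6 were more positive in WT and 13 more negative. It was called for 6.39% of all genes and 9.34% of those at or above 19.1 CPM. The largest called interactions of the list were those of *Cr2*, the complement receptor CD21/35, at -1.07 ± 0.13 and the inhibitory receptor *Cd22* at -0.98 ± 0.07. The adaptor *Sla*, which lowers antigen receptor levels, followed at 0.87 ± 0.10. *Sla* stood at 234, 199.8 and 203 CPM (WT 0 h), 205, 187 and 217 (KO 0 h), 314, 303 and 344 (WT 4 h) and 163, 172 and 170.3 (KO 4 h). It rose in WT and fell in KO, and the genotypes overlapped at 0 h only.

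A list of 25 early genes that BCR ligation induces was read beside the members. At 4 h 12 of 23 tested (52.2%) were called between genotypes, 10 higher in WT and 2 higher in KO, beside 10.9% of all genes. The 2 higher in KO were *Egr1* at -0.41 ± 0.11 (edgeR adjusted p 0.0292) and *Egr3* at -0.62 ± 0.15 (adjusted p 0.012). Those higher in WT included *Nr4a1*, *Nr4a3*, *Fos*, *Junb*, *Ier2* and *Cd83*. *Egr2* at -0.33 ± 0.11 (adjusted p 0.0693) and *Cd69* at 0.26 ± 0.13 (adjusted p 0.257) were not called. The study, from these same data, also reports *Nr4a1*, *Junb* and *Ier2* as higher in WT at 4 h. It describes *Nr4a1* as a gene that the G protein Gαs can induce in B cells. The list is thus not a measure of BCR signaling alone, and what moved its genes was not tested. In culture, 10 rose and 8 fell in WT out of 20 tested (90%, and 33.1% of all genes), and 7 rose and 9 fell in KO (80%, and 23.3% of all genes). The interaction was called for 6 (30%, and 6.39% of all genes), of which 5 were more positive in WT. The median log2 fold change of the list at 4 h was 0.24, beside -0.06 for the members. At 0 h, 1 of 19 was called, *Cd83*, with a log2 fold change of WT over KO of -0.31. After culture *Cd83* was higher in WT, at 0.68 ± 0.08 (edgeR adjusted p 4.8e-05), with an interaction of 0.98 ± 0.12 (adjusted p 6.62e-06). Whether this list or the other pathway genes differ from genes of like abundance was not tested.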

How the data were processed

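RNA was sequenced from sorted mouse follicular B cells of 2 genotypes at 2 times, with 3 libraries per group. The authors amplified RNA with the Ovation RNA-seq System V2, sequenced single-end reads, used STAR for alignment (mm10) and HTSeq for counts per gene. The tools' versions, the gene annotation and the strand setting are not given in the sources used here. The deposited values are raw counts per gene, in a table for each time, of genes with at least 10 reads over its 6 libraries. The tables hold 0 rows that name no gene, and 0 columns were left without a sample. Without strand, reads of overlapping genes could not be separated.

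Counts were scaled by TMM, filtered with filterByExpr and tested with edgeR 4.0.16 (glmQLFit and glmQLFTest, R 4.3.3). Genotype (WT over KO) was tested at each time in the 6 libraries of that time. Culture (4 h over 0 h) and the interaction (WT change minus KO change) came from 1 fit that held all 4 groups and the genes shared by both tables. P-values were adjusted over all genes tested, with a threshold of 0.05. The scripts were tested on simulated data. Exon lengths and positions come from GENCODE M21 (GRCm38), and upstream sequences from RefSeq.

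The 38 members and the gene lists were chosen with earlier results of these data known. Values per library were given for members called in the interaction, for those called at 4 h with an absolute log2 fold change of at least 0.3, for the 3 most raised and the 3 most lowered members of each culture contrast, and for *Cd79a*, *Cd79b*, *Syk*, *Btk*, *Blnk* and *Plcg2*. Of the other pathway genes, the 3 with the largest called interaction were named. For the early genes only counts and medians were planned, and the genes named were picked after the data were seen. *Sos1*, *Dok3*, *Cd81*, *Prkcd*, *Lyn* and other members outside this rule are given for completeness. The comparison with genes of like abundance and the octamer search were added after the data were seen. Alternatives were other scalings (RLE factors, library totals), DESeq2 1.42.0, no filter, a filter at 1 CPM, other groups in the fit, a replicate block and each library left out. The edgeR test gives no standard error, so each was taken as the absolute log2 fold change divided by the square root of the F statistic. Standard errors cover counting error and the spread between libraries, and molecular identifiers were not used. Replicate libraries of a group differed by more than sampling noise (chi-square per degree of freedom 1.95 to 9.32), so none was counted as a duplicate.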

Additional observations from a re-analysis of the deposited data

Results flagged for a closer look

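The culture change of 11 members differed between WT and KO cells by the edgeR test of that difference (WT change minus KO change, log2). It was more positive in WT for *Inpp5d* at 1.07, *Fyn* at 0.88 and *Itpr3* at 0.45. It was more negative in WT for *Ms4a1* at -0.77, *Prkcb* at -0.57, *Blk* at -0.46 and *Plcg2* at -0.41. The same held for *Nfatc1* at -0.37, *Rasgrp3* at -0.32, *Ptprc* at -0.29 and *Bank1* at -0.29. Adjusted p-values ran from 1.04e-08 (*Inpp5d*) to 0.0389 (*Bank1*). Over all genes tested, 6.39% were called in the same test. At or above 252 CPM 25.7% were called, 7.1% more positive and 18.6% more negative in WT. The part that other cell types, depth or library quality had in these differences was not tested beyond the marker values given above.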

How the results depend on the processing

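The counts of called members moved little. In the genotype contrast at 0 h the count was 0 in edgeR under every alternative and 1 (*Ms4a1*) with DESeq2. Leaving out each library in turn gave 0 at 0 h, 12 to 18 at 4 h, 23 to 27 for culture in WT, 21 to 26 for culture in KO and 10 to 12 for the interaction. At 4 h the count was highest without WT 4 h replicate 2, where *Cd79a*, *Dapp1* and *Hcls1* were added. Fits that leave out a library test fewer samples. With the replicate number as a block, the counts were 0, 15, 26, 25 and 11, so the block changed none by over 1.5 times. It lost no call and added those of *Rasgrp3* in WT culture, at -0.13 (adjusted p 0.0497), and *Vav2* in KO culture, at -0.29 (adjusted p 0.0393). The labels do not say that a shared number marks a shared mouse, though by the study's count of mice the 0 h and 4 h libraries of a genotype share mice. Same-numbered libraries correlated, in their deviations from the group means, at -0.10 to 0.07 between genotypes, at 0.07 to 0.13 between times in WT and at -0.04 to 0.15 between times in KO. Every library correlated best with its own number only between the times in WT, which is a hint from the data. No member's log2 fold change, called in the main fit, changed sign under any alternative. Single calls that were lost are named beside the values above. The median standard error of a member was 0.06 for the genotype and culture contrasts and 0.09 for the interaction. Members were left uncalled at values as far from 0 as -0.27 (*Vav3*) at 4 h and -0.33 (*Nfatc2*) in the interaction, so differences of that size could be missed.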
